A study of Caenorhabditis elegans with 2 samples.

Results

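The regions described here are the promoters of first genes in operon-like clusters of Caenorhabditis elegans. A first gene is a nuclear protein-coding gene whose next protein-coding neighbour on the same strand starts within 300 bp past its end, and which has no gene on its own strand ending within 300 bp upstream of its start. There were 1893 such genes among 19973 nuclear protein-coding genes. A further 2512 genes with a same-strand protein-coding gene ending within 300 bp upstream are called downstream genes, and the remaining 15568 are called other genes. The promoter of a gene comprised the 1000 bp before and the 200 bp after each annotated transcript start. It was called bound when it held the summit of a region from the list filtered by irreproducible discovery rate (IDR), a test of agreement between replicates. A region of this list need not overlap a region in each replicate's own list. Only distances and strands chose the first genes, so their binding was free to differ from that of any other gene.

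Chromatin immunoprecipitation and sequencing (ChIP-seq) was done for eGFP-tagged GMEB-1 in whole larvae of the L2 stage, with the sexes pooled. The strain was OP343, genotype unc-119(ed3) III; wgIs343, in which wgIs343 is the integrated insertion for gmeb-1. Its 2 biological replicates formed 1 group, and no other genotype, stage or treatment and no strain without the tag was among the samples, so no test between groups was possible. Genes and summits are not replicates of a condition, and no p-value is given. For the class shares, the gene lists and other main counts, the value of each replicate alone, from its own 3909 strongest regions, stands beside that of the 3909 IDR regions as the measure of spread. The files hold no read numbers, which leaves the depth unknown. Whole larvae mix all tissues, so the cells in which a promoter was occupied cannot be told apart.

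Many C. elegans genes are transcribed as operons, in which a single promoter drives several genes in a row. The long transcript is cut into separate mRNAs by trans-splicing, in which a short leader RNA is joined to each message. First genes usually receive the leader SL1, and downstream genes receive SL2. Operons of the worm are known to be rich in genes that every cell needs, such as those for ribosomes, mitochondria and RNA processing. The clusters here were defined by spacing alone, so some are not transcribed as operons. GMEB-1 is named for a family of mammalian proteins that bind the glucocorticoid modulatory element, and DNA binding in that family is by the SAND domain.

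The summit sequences of 8 strongly bound first genes and of a textbook operon are shown first, because they are the DNA on which the binding at first genes centred. Each summit run is reference sequence (RefSeq, WBcel235, equal to ce11) that extends 50 bp from the summit in both directions, read 5′ to 3′ along the strand of the first gene. Capitals mark the string ACGT and 5 longer ones described further below, on either strand. These are ACGCGC, then the related string GAGCGC, then the string GACGCA, and finally the purine-rich strings AGAGAC along with GAGAGA. The 8 windows lie at chrV:10897325-10897425, chrII:4999282-4999382, chrIII:4963068-4963168, chrII:14059917-14060017, chrIII:10759201-10759301, chrII:4851769-4851869, chrV:5939664-5939764 and chrIII:11007846-11007946, in the order printed. The fib-1 summit window lies at chrV:15002248-15002348 and the gap between fib-1 and rps-16 at chrV:15000542-15000650.
sec-61.G: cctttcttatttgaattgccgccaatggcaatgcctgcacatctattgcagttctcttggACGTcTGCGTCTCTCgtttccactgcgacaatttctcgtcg
citk-2: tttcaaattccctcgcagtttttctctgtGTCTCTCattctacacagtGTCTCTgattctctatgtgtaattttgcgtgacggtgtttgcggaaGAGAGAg
vps-22: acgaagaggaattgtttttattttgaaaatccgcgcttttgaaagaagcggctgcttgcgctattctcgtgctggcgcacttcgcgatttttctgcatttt
rpb-11: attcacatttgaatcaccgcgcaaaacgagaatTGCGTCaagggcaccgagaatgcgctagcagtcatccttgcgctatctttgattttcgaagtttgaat
tasp-1: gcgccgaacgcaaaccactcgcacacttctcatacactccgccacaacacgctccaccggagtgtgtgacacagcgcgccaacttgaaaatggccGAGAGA
dnj-9: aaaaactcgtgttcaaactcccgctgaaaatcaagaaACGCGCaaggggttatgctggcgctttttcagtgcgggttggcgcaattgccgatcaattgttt
syf-3: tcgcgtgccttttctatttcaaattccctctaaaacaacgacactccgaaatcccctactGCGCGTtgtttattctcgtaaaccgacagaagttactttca
Y48A6B.3: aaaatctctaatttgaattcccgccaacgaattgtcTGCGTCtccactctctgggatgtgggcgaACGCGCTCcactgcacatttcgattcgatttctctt
fib-1: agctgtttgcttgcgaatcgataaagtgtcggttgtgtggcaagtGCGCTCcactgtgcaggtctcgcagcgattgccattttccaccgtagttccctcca
fib-1 to rps-16 gap: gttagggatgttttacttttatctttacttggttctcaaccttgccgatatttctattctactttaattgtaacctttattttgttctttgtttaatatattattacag

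The fib-1 and rps-16 pair shows the arrangement that the rest of the data describe in bulk. The gene fib-1 encodes fibrillarin, the methyltransferase of the nucleolus, and rps-16 a protein of the small ribosomal subunit. A summit of signal 249 lay 75 bp upstream of fib-1, ranked 129 in replicate 1 and 472 in replicate 2. The signal is a strength value that the authors' caller gave each region. The summit also lay in the promoter of mut-15, the first gene of a cluster on the other strand. No summit lay in the gap before rps-16 or elsewhere in its promoter. The fib-1 window was 53.5% G and C and held GAGCGC, while the gap was 26.6% G and C and held none of the 6 strings.

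First genes were bound more often than any other class. Of the 1893 first genes, 636 (33.6%) held an IDR summit in the promoter, beside 16.4% of all nuclear protein-coding genes. The share was 15.2% for other genes (2364 of 15568) and 10.6% for downstream genes (267 of 2512). First genes were thus bound 2.21 times as often as other genes and 3.16 times as often as downstream genes. By the class rule, downstream genes lay close to their upstream neighbour, at a median of 115 bp. The medians were 849 bp for first genes and 1398 bp for other genes. The promoter of a downstream gene thus usually reached into the gene before it, and whether this lowered the share was not tested. With a promoter of 2000 bp before and 500 bp after each start, the order of the other 2 classes turned, with downstream genes at 20.2% and other genes at 18.8%. First genes then stood at 38.2%, a ratio of 1.89 to downstream genes.

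Each replicate alone gave the same order of classes. In replicate 1, 22.1% of first genes, 11.2% of other genes and 8.36% of downstream genes were bound, beside 11.8% of all genes. In replicate 2 these shares were 34.2%, 15.2% and 10.9%, beside 16.5% of all genes. The ratio of first to other genes was higher among strong summits, at 2.57 against 2.21 with the full IDR list. With the 1954 strongest IDR regions, 23.7% of first genes and 9.19% of other genes were bound, beside 10.2% of all genes. The replicates differed in level, so the lowest share of first genes, in replicate 1, was 22.1%, still above the highest share of other genes.

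**Figure D1:**
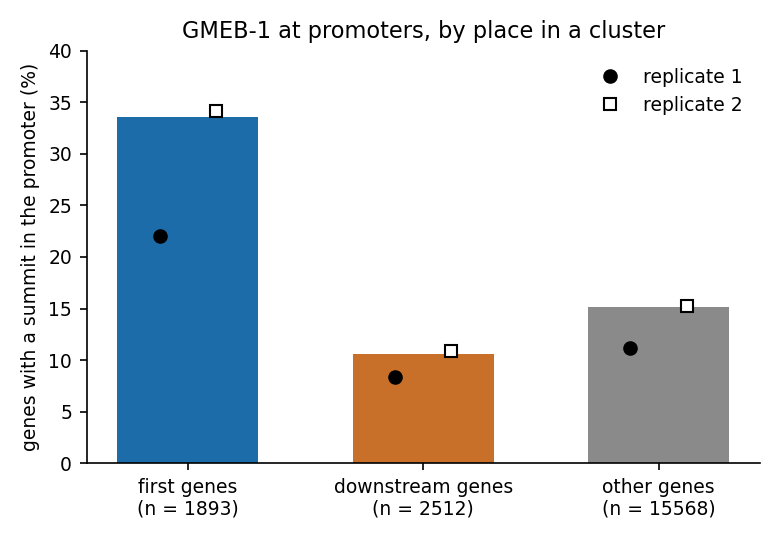
Share of genes with a GMEB-1 summit in the promoter (%, y axis) for first, downstream and other genes (x axis, with the number of genes). Bars are the IDR list, filled circles replicate 1 and open squares replicate 2. First genes stand at 33.6%, and each replicate's point for first genes lies above its own points for the other classes.

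The summits at first genes also had a higher median signal than those elsewhere. A total of 611 IDR summits (15.6% of the list) lay in first-gene promoters, with a median signal of 102. The lower and upper quartiles were 61.0 and 211, and the highest was 1568. Summits in promoters of other and downstream genes only had a median of 73.8 (1936 summits), and summits in no promoter had 59.0 (1362 summits). Summits shared with another class counted as member summits only, so these sets are not alike. Per bound gene, by its strongest summit, the median was 106 for first genes and 87.0 for other genes. Where an opposite-strand neighbour lay nearer than 500 bp, other genes were not weaker, at 118 against 116. At wider spacing or with a same-strand neighbour, first genes had the higher median. Of the member summits, 68.1% belonged to the 1954 strongest regions of the list, 143 to its top 500 and 32 to its top 100.

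A single summit per promoter was the rule. Of the 636 bound first genes, 614 held 1 summit, 21 held 2 and 1 held 3. The summits were found unequally well in the replicates' own lists: 97.4% overlapped the 3909 strongest regions of replicate 2, but 52.5% those of replicate 1. This difference was shared by the summits in other promoters, at 94.1% and 50.3%. Of the member summits, 313 (51.2%) overlapped the strongest regions of both replicates, against 48.1% of all IDR summits. Any region in the full list of replicate 1 was overlapped by 77.7% of member summits and 77.4% of all IDR summits. A bound call thus does not mean that both replicates held a region there.

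The 12 strongest summits at first genes included several at genes for general cell functions. The strongest, of signal 1568, stood 232 bp before the start of sec-61.G, which encodes part of the channel that carries new proteins into the endoplasmic reticulum. It ranked 71 in replicate 1 and 3 in replicate 2. The summit of citk-2 had a signal of 1442 and ranked 126 and 5 in the replicates, and that of eif-3.C, a subunit of a translation initiation factor, had a signal of 1272 and ranked 180 and 8.

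The gene rpb-11, for a subunit of RNA polymerase II (signal 1195, 118 bp upstream) and the alpha-tubulin gene tba-2 (1187, 140 bp upstream) followed closely. The DnaJ cochaperone gene dnj-9 stood at 1010 and the splicing factor gene syf-3 at 915. The gene hpr-17, which acts in the DNA damage checkpoint, stood at 822 with its summit 103 bp upstream. These 8 summits were all among the top 50 of the IDR list and of replicate 2. In replicate 1 their ranks were lower and ran to 913 for syf-3, still within the 3909 regions used.

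Some of these summits could be assigned to more than 1 gene. The summit 625 bp upstream of vps-22, a gene of the ESCRT machinery that sorts membrane proteins (signal 1203), lay closer to the start of C27F2.9. That of Y48A6B.3 (signal 911) lay closer to fipr-17. Over all member summits, 297 of 611 (48.6%) also lay in the promoter of a gene of another class. The nearest start was that of a first gene for 469 (76.8%), of another gene for 141 and of a downstream gene for 1. When a promoter counted as bound only by summits nearest to a start of its own gene, 23.8% of first genes and 11.4% of other genes were bound, a ratio of 2.09 (1.85 in replicate 1 and 2.13 in replicate 2). When each of the 3909 summits, in a promoter or not, was given to the gene with the nearest start, the shares were 27.2% and 16.2%, a ratio of 1.67.

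Summits gathered a short way upstream of first-gene starts. The median distance from the nearest first-gene start was 206 bp, with quartiles of 131.5 and 343.5 bp, and 95.4% lay upstream. Of the 611, 49.3% lay 100 to 300 bp upstream, against 41.0% of the 1936 summits in other promoters, whose median distance was 182 bp. The latter were measured to the nearest start of any gene whose promoter held them. Since 141 of the 611 lay nearer to a start of another gene than to that of a first gene, the distances were not measured alike. In bins of 50 bp, the density rose to 53.9 summits per 1000 first genes in the bin that starts 200 bp upstream. For other genes the highest bin, which starts 150 bp upstream, held 17.4 per 1000. The annotated start of a trans-spliced gene is often the splice site of the leader rather than the place where transcription begins; how far this moved the distances was not tested.

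**Figure D2:**
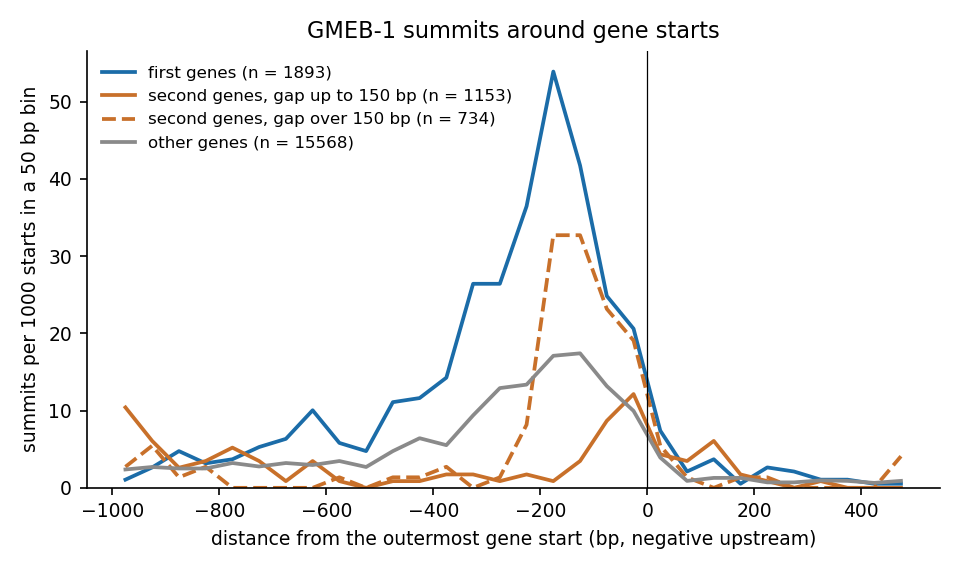
Number of IDR summits per 1000 gene starts in bins of 50 bp (y axis) against the distance from the outermost start of the gene (bp, x axis, negative upstream). The line of first genes peaks at 53.9, that of other genes at 17.4, and that of second genes after a gap of up to 150 bp at 12.1. The dashed line of second genes after a longer gap peaks at 32.7.

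Inside the clusters, summits were dense in the first promoter and in the gaps between genes and scarce in gene bodies. First-gene promoters held 26.3 summits per 100 kb (17.2 in replicate 1 and 26.7 in replicate 2), against 10.6 in promoters of other genes and 3.90 in the whole nuclear genome. The bodies of first genes beyond their first 200 bp held 2.14 per 100 kb, and those of downstream genes 1.63. The 1000 bp past the last gene held 6.67. The short gaps held 38.1 per 100 kb, with 19.1 in replicate 1 and 40.2 in replicate 2. For comparison, the 300 bp directly before first-gene starts held 64.9 per 100 kb (39.1 and 65.4 in the replicates), and the 300 bp before other genes held 24.9. Most gaps were shorter than 300 bp, with a median of 120 bp between first and second genes, so the lengths were not matched.

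The gap summits came mostly from the longest gaps. Of 879 gaps of over 150 bp, 100 (11.4%) held a summit, with 6.03% in replicate 1 and 12.4% in replicate 2. Of 747 gaps of over 100 to 150 bp, 17 (2.28%) did, and of 568 gaps of over 50 to 100 bp, 11 (1.94%) did. None of 202 gaps of 1 to 50 bp held one in the IDR list or in the top regions of either replicate. Shorter gaps also offer less sequence: per 100 kb the densities were 50.8, 19.6, 23.2 and 0 from the longest class to the shortest.

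Clusters with a summit in a gap were bound at the first gene in 25.8% of cases (32 of 124), and those without one in 34.1% (604 of 1769). These sets were not matched for gap length, and 100 of the gaps with a summit were longer than 150 bp. First genes whose gap to the second gene was over 150 bp were bound in 22.6% of cases. Those with a gap of up to 150 bp were bound in 40.6%. The strongest gap summit had a signal of 1230 and lay 153 bp before ddp-1, a gene for a small chaperone of mitochondrial import, in the gap behind hlh-33. It ranked 66 in replicate 1 and 10 in replicate 2, and the promoter of hlh-33 held no summit. The second, of signal 1038, lay 86 bp before fbxl-2 in the gap behind rbg-3. The next were those before pafo-1 (906), dbt-1 (888) and the prefoldin gene pfd-6 (879). Of these 5 clusters only that of rbg-3 also had a summit at the first gene. The median signal of all 128 gap summits was 93.4.

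Sequences that extend 50 bp from the strongest gap summits in both directions are shown for comparison with those at first genes, read along the genes' strand, at chrIII:1859685-1859785 for ddp-1 and chrIII:4757124-4757224 for fbxl-2. The first held none of the 6 strings and the second ACGCGC, in capitals. The same capitals apply as above.
ddp-1: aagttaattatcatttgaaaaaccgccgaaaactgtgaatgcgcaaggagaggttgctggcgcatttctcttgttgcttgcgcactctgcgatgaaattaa
fbxl-2: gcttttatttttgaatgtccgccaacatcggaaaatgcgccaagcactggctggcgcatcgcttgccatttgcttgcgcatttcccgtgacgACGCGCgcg

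The length of the first gap also went with binding at the first gene. The gap to the second gene had a median of 120 bp, with quartiles of 94 and 204 bp. First genes were bound in 44.0% of cases (248 of 564) when it was over 100 to 150 bp, and in 39.8% (172 of 432) when it was over 50 to 100 bp. The share was 31.1% (50 of 161) below that and 22.6% (166 of 736) for gaps of over 150 bp. The same order of the longest class below both middle classes held in replicate 1, at 15.4% against 25.5% and 28.4%, and in replicate 2, at 22.6% against 40.3% and 44.7%.

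The same order stood within each orientation of the gene upstream. Where that gene lay on the opposite strand, 51.8% of first genes with gaps of over 100 to 150 bp and 32.7% of those with gaps of over 150 bp were bound. Where it lay on the same strand, the shares were 30.8% and 11.2%. At the edge of the definition, F26F2.8 and R07C3.3, with gaps of 300 bp, and W09C2.10 and col-33, which fell outside with gaps of 301 bp, all had no summit in the promoter. The gap behind F26F2.8 held a summit of signal 146.

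**Figure D3:**
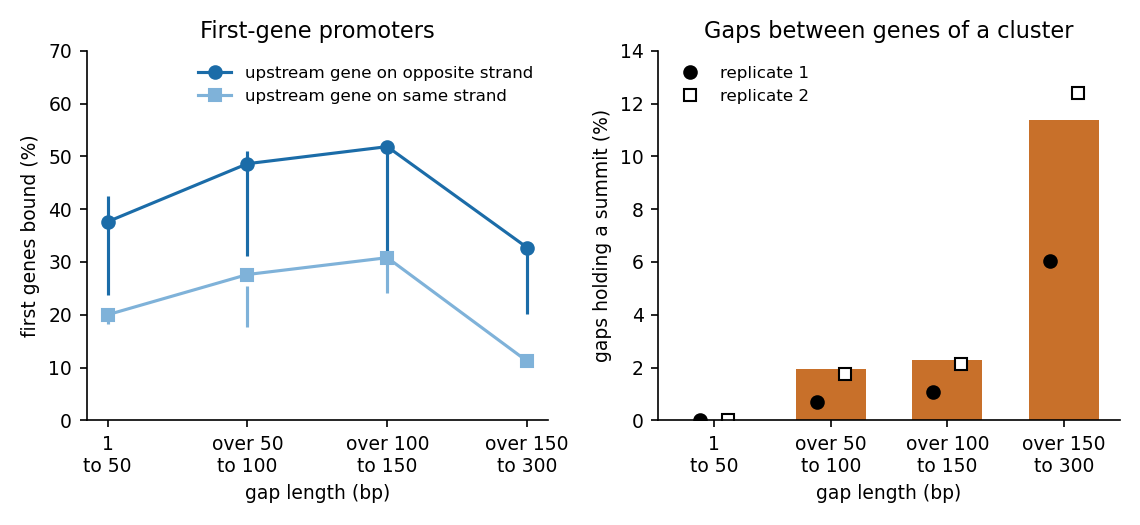
Left, share of first genes bound (%, y axis) by the length of the gap to the second gene (bp, x axis), for first genes whose upstream neighbour lies on the opposite or the same strand; points are the IDR list and vertical lines span the replicates. Right, share of gaps between genes of a cluster that hold a summit (%), with bars for the IDR list and points for the replicates. Binding at first genes falls to 32.7% and 11.2% in the longest gap class, in which 11.4% of gaps hold a summit.

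Clusters of more genes were bound somewhat more often at their first gene. Most clusters were small: 1522 had 2 genes, 271 had 3, 75 had 4 and 25 had more, up to 7. The first gene was bound in 31.6% of clusters of 2 genes, 40.2% of those of 3, 46.7% of those of 4 and 44.0% of the 25 larger ones. In replicate 1 the shares were 20.1%, 30.6%, 30.7% and 24.0%, so among clusters of 3 or more genes no order was kept.

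Among the 6 largest clusters 4 were bound. The cluster of 7 genes, which starts with the RNA polymerase subunit gene rpb-6, had a summit of signal 138 at 314 bp upstream. Those of daf-31, an N-terminal acetyltransferase gene (71.2), ndus-8, a gene of respiratory complex I (119), and suco-1 (148) were bound, and those of egli-1 and nhr-128 had no summit. All 4 summits were of middling strength, and that of daf-31 ranked 16495 in replicate 1, far below its 3909 strongest regions.

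The gene upstream went with large differences in binding. Where the nearest upstream gene lay on the opposite strand, so that both are transcribed away from a shared space, 470 of 1093 first genes (43%) were bound. Where it lay on the same strand, 166 of 800 (20.8%) were. First genes sat in tighter surroundings than other genes, with a median of 849 bp to the upstream neighbour against 1398 bp, and 57.7% had it on the opposite strand against 50.7%.

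Closer spacing went with more binding, and first genes exceeded other genes at every spacing. With an opposite-strand neighbour nearer than 500 bp, 58.0% of first genes and 38.2% of other genes were bound, and at 2000 bp or more 23.0% and 10.1% were. With a same-strand neighbour the shares were 25.2% and 10.8% at under 500 bp and 11.5% and 7.69% at 2000 bp or more. Across the 8 combinations of spacing and orientation the ratio of first to other genes ran from 1.49 to 2.38, and in the single replicates from 1.36 to 2.46. Among genes whose promoter met no opposite-strand promoter, 20.8% of 1083 first genes and 9.38% of other genes were bound, a ratio of 2.21.

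**Figure D4:**
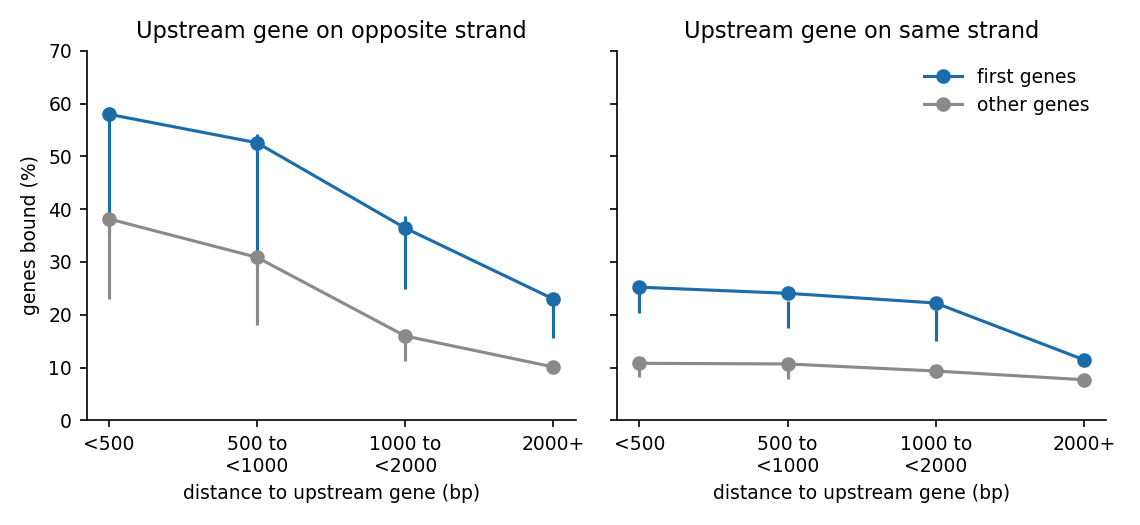
Share of genes bound (%, y axis) by distance to the nearest upstream gene (bp, x axis) for first genes and other genes, with that gene on the opposite strand (left) or the same strand (right). Points are the IDR list and vertical lines span the replicates. First genes lie above other genes in all 8 bins, from 58.0% against 38.2% at the closest spacing on opposite strands to 11.5% against 7.69% at the widest spacing on the same strand.

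In pairs of clusters that face away from each other, the first genes mostly had the same call. There were 106 pairs of first genes that were each other's nearest opposite-strand neighbour, with a median of 618 bp between their starts. Both were bound in 49 pairs, 1 in 14 and none in 43, and in 44 pairs a single summit lay in both promoters. Of the 212 genes in such pairs 52.8% were bound, against 40.7% of the 880 first genes whose opposite-strand neighbour was not a first gene. Because promoters reach 1000 bp upstream, a summit between close starts falls in both, so a shared call is largely fixed by the promoter's length. The genes in pairs and the 880 were not matched for spacing. Among all first genes with an opposite-strand neighbour, 58.0% were bound at under 500 bp and 52.6% at 500 bp to under 1 kb.

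The strongest shared summit, of signal 1083, stood between tasp-1, a gene for the protease taspase, and K01G5.10, 56 bp from the former and 729 bp from the latter. It ranked 16 in replicate 1 and 19 in replicate 2. The second stood between ska-3, a gene for attaching chromosomes to the spindle, and the ribosomal protein gene rps-12, at 120 and 173 bp, with a signal of 870 and ranks of 36 and 38. The next were spot-1 with B0361.11 (820), rpl-12 with lin-54 (701) and ant-1.1 with T27E9.2 (596). The gene lin-54 encodes a DNA-binding subunit of the DREAM complex, which represses cell cycle genes, and ant-1.1 a carrier of ADP and ATP across the mitochondrial membrane.

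Binding at first genes differed among chromosomes. It was most frequent on III, where 161 of 316 first genes (51%) were bound, and least on X, where 24 of 153 (15.7%) were. The shares on I, II, IV and V were 36.1%, 32.5%, 37.6% and 23.5%. In replicate 1, III stood at 32.9% and X at 17%. The ratio to other genes of the same chromosome was 2.69 on IV and 1.27 on X, where 12.3% of other genes were bound. The median signal of bound first genes was 136 on III and 65.2 on X, against 110 and 60.1 for bound other genes. First genes also had the higher median on II, IV and V. On I other genes had it, at 119 against 103.

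Genes with more annotated starts have longer promoters in total and were bound more often. First genes with 1 start were bound in 30.5% of cases, with 2 in 39.4% and with 3 or more in 41.7%. Other genes stood at 12.2%, 20.8% and 27.8%. The ratio of first to other genes was therefore 2.51, 1.89 and 1.5, and in replicate 1 it was 1.08 for genes with 3 or more starts, where 25.4% of 240 first genes were bound.

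Genes of general cell function made up the lists with the highest shares. Of 22 lists chosen by gene symbol, 17 had a share of bound first genes above the 33.6% of all first genes, and 14 had a higher share among first genes than among other genes of the list. In replicate 1 these counts were 14, against its own share of 22.1%, and 13. Among cytosolic ribosomal proteins 21 of 22 first genes were bound, led by rps-12 (870) and rpl-20 (704), with rla-2 the exception, and 19 were in replicate 1. Other genes of the list were bound at 90.7%, and none of its 5 downstream genes was. Chaperones had 11 of 12 bound, but 6 in replicate 1, against 47.7% and 38.6% of other genes, with sti-1, a cochaperone linking the Hsp70 and Hsp90 systems, at 694 and the chaperonin subunit gene cct-3 not bound. All 5 first genes of the nucleolus list were bound, among them utp-20 (275), and all 3 of mitochondrial import, among them tin-9.2 and timm-17B.1 (182 each). In replicate 1, 3 of the nucleolus list and 1 of mitochondrial import were bound, and the summit at tin-9.2 ranked 20642. Replicate 2 gave the IDR counts for these 4 lists.

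Lists for chromosomes and gene expression ran from 80% of first genes bound, for DNA replication and cell division, to 50% for chromatin. Of the first genes of DNA replication and cell division 12 of 15 were bound, including the cyclin B gene cyb-1 (619) and the clamp loader gene rfc-4 (573), while rpa-1 was not. In replicate 1 the count was 6 of 15, and in replicate 2 it was 12. Splicing had 12 of 19 (snrp-3 at 534 and mog-3 at 348), translation factors 9 of 14 (eif-3.B at 695), and RNA polymerase and general transcription 12 of 21, with the TFIIB gene ttb-1 at 370. Chromatin had 11 of 22, led by mes-2, the histone methyltransferase of the worm's Polycomb complex, at 786. Other genes of the translation factor and splicing lists were bound at 81.8% and 78.1%, above the 64.3% and 63.2% of their first genes. In replicate 1, 8 first genes of splicing, 6 of translation factors, 9 of RNA polymerase and general transcription and 11 of chromatin were bound. In replicate 2 these counts were 13, 10, 12 and 11.

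Membrane traffic had 22 of 32 first genes bound, and ubiquitin conjugation 10 of 16, led by the conjugating enzyme gene ubc-7 (641). Mitochondrial ribosomal proteins had 9 of 12 (mrps-7 at 293), respiratory chain and ATP synthase 5 of 9 (nduf-11 at 762), and the vacuolar ATPase and autophagy 5 of 8 (vha-9 at 153). Aminoacyl-tRNA synthetases and the proteasome had 4 of 7 each, and nuclear pore and transport factors 3 of 6 (the importin gene imb-3 at 799). Other genes were bound less often than first genes for membrane traffic (45.5%), ubiquitin conjugation (32.8%) and mitochondrial ribosomal proteins (54.5%). The same held for vacuolar ATPase and autophagy (43.8%) and the synthetases (40%). For the respiratory chain (70%), the proteasome (80%) and the nuclear pore list (71.0%), other genes were bound more often than first genes. The summits of sars-2, fars-1 and rpn-9, among the 2 strongest of the synthetase and proteasome lists, had no overlapping region in the list of replicate 1.

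In most of these lists replicate 1 alone gave lower counts of first genes. It had 12 of 32 bound for membrane traffic, 4 of 12 for mitochondrial ribosomal proteins and 1 of 7 each for the synthetases and the proteasome. Nuclear pore and transport factors had 1 of 6, and ubiquitin conjugation 8 of 16. The respiratory chain and the vacuolar ATPase and autophagy kept their count of 5 each. Replicate 2 gave 21 for membrane traffic, 11 for mitochondrial ribosomal proteins, 4 for the synthetases, 5 for the proteasome, 3 for the nuclear pore, 11 for ubiquitin conjugation, 6 for the respiratory chain and 5 for the vacuolar ATPase and autophagy.

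Genes of restricted expression were bound at few first genes. The 6 collagen and 4 neuropeptide first genes had no summit, and the chemoreceptors had 2 of 81 (srh-17 at 70.3 and str-39 at 52.5). Nuclear hormone receptors had 3 of 17, the strongest nhr-49, a regulator of fat metabolism, at 96.3. Homeobox genes had 2 of 7, ceh-92 (230) and ceh-39 (62.3), and the former had no overlapping region in replicate 1. Among other genes of these lists, 5.84% of collagens, 2.21% of neuropeptides and 1.41% of chemoreceptors were bound. Nuclear hormone receptors stood at 18.8% and homeobox genes at 4.23%. Except for homeobox genes, the counts of first genes thus went with low or similar shares among other genes of the list. In replicate 1 the counts were 0, 0, 2, 2 and 1 for collagens, neuropeptides, chemoreceptors, nuclear hormone receptors and homeobox genes. Apart from the chemoreceptors, the most numerous of the 22 lists among first genes, these lists are small.

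First genes outside every list were also bound more often than the rest. Their share was 30.4% (471 of 1548), against 14.5% of other genes and 10.7% of downstream genes in no list. In replicate 1 these shares were 19.8%, 10.7% and 8.06%, and in replicate 2 30.8%, 14.6% and 10.8%.

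Downstream genes of the same functions were bound at their own starts less often than other genes. In all 22 lists the share was lower for downstream genes than for other genes of the list, as it was in 21 in replicate 1 and 22 in replicate 2. Here too the promoters of downstream genes usually reached into the gene before, and the classes were not matched for this. For mitochondrial ribosomal proteins 9.52% of downstream genes were bound against 54.5% of other genes, and for membrane traffic 8.11% against 45.5%. For ubiquitin conjugation none of 13 was bound against 32.8%. Some lists had higher shares of downstream genes, several of them with few such genes. The counts were 2 of 3 for the nuclear pore list against 71.0% of other genes, and 2 of 5 for translation factors against 81.8%. For DNA replication and cell division 4 of 13 were bound against 70.7%.

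In 18 of the 22 lists, downstream genes followed a bound first gene more often than they were bound themselves, and in 14 and 19 lists in the single replicates. Of the 21 mitochondrial ribosomal protein genes in downstream position, 17 lay in clusters whose first gene was bound, and 2 were bound in their own promoter. Each replicate alone gave 13 and 17 behind a bound first gene. Examples were mrpl-41 behind misc-1 (550), mrpl-30 behind W04B5.5 (499) and mrps-33 behind F21D5.7 (244). Of the 13 downstream genes of the respiratory chain in these clusters, 10 followed a bound first gene, such as cox-11 behind lin-54 (701) and nuo-4, a gene of respiratory complex I, behind syf-2 (415). The counts were 10 of 13 for ubiquitin conjugation, 16 of 26 for RNA polymerase and general transcription, and 5 of 5 for vacuolar ATPase and autophagy. In replicate 1 they were 6 of 13 for the respiratory chain, 4 of 13, 8 of 26 and 5 of 5. The exceptions in the IDR list were all lists of general cell function. None of 3 downstream genes of mitochondrial import and none of 3 of the nuclear pore list followed a bound first gene. Of these, 1 and 2 were bound themselves. For the proteasome both counts were 2 of 6, and for translation factors both were 2 of 5. The excess was small for the synthetases, with 3 of 9 behind a bound first gene and 2 of 9 bound themselves. Over all downstream genes in these clusters the count was 852 of 2389 (35.7%), with 23.7% in replicate 1 and 36.3% in replicate 2, and for chemoreceptors it was 7 of 88.

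**Figure D5:**
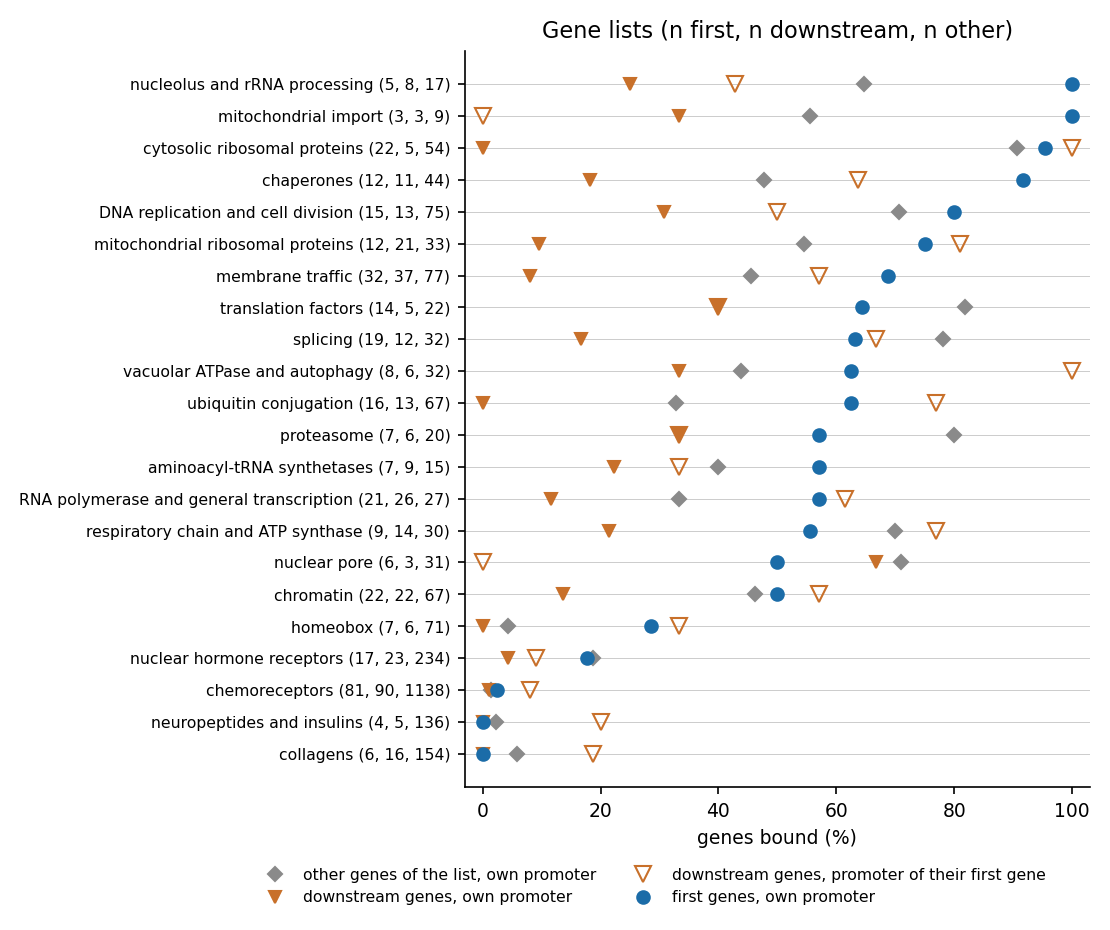
Share of bound genes (%, x axis) in 22 gene lists (y axis, ordered by the share of first genes, with the numbers of first, downstream and other genes). Circles are first genes, diamonds other genes and filled triangles downstream genes, each by its own promoter; open triangles are downstream genes by the promoter of their first gene. Mitochondrial ribosomal proteins show the contrast, with 9.52% of downstream genes bound themselves and 81.0% behind a bound first gene.

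Part of the binding called at downstream genes came from summits of the first gene. Of the 267 bound downstream genes, 46 held only summits that also lay in a first-gene promoter, and 221 (8.80% of downstream genes) held a summit outside them. The second gene was bound in 91 of the 636 clusters with a bound first gene (14.3%), and in 47 of these (7.39%) by a summit of its own. In the 1257 clusters whose first gene was not bound, the second was bound in 122 (9.71%).

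Operons named in textbooks fell on both sides. The gene mev-1, for a subunit of succinate dehydrogenase, stands 4 bp before the cell death regulator ced-9. It had a summit of signal 264 at 146 bp upstream, ranked 288 in replicate 1 and 416 in replicate 2, while ced-9 had none. The summit lay nearer to the start of jmjd-4 than to that of mev-1. The acetylcholine receptor genes des-2 and deg-3 had no summit. The glyceraldehyde-3-phosphate dehydrogenase gene gpd-2 counted as a first gene because mai-1 overlaps its start. It held no summit, mai-1 held 2, and gpd-3 held 1 of signal 57.9, 2 bp past its start. Likewise lin-26 counted as a first gene because lir-1 overlaps it, and neither was bound. The genes lin-15B and lin-15A overlap, and vha-11 and vha-3 lie more than 300 bp apart, so neither pair entered the clusters.

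The letter strings marked in the printed windows were more frequent at bound first genes than at a like distance before unbound ones. They were taken from an earlier look at these data, so their excess at summits is a description. In the 611 windows at member summits, ACGCGC was present in 21.8%, GAGCGC in 17.7% and GACGCA in 14.6%. In windows centred 206 bp upstream of the 1257 first genes without a summit these were 2.07%, 1.99% and 2.86%, and at the same place before all 19973 genes 2.38%, 1.92% and 3.05%. Both strands were searched, and the strings can overlap each other, as in the Y48A6B.3 window.

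Among bound promoters, first genes held ACGCGC more often and GAGAGA less often than the rest. The share with ACGCGC was 14.4% at summits in other promoters and 5.07% at summits in no promoter. GAGAGA went the other way, at 15.4% of member summits, 21% of summits in other promoters and 27.1% of those in no promoter, and AGAGAC stood at 13.7%, 16.5% and 19.7%. The short string ACGT was nearly even, at 25%, 24.7% and 28.5%. At least 1 of the 5 longer strings was present in 56.5% of member summits and 14.2% of unbound first genes. Summit windows were also richer in G and C, with a median of 45.5% at member summits, 43.6% at other promoter summits and 32.7% at unbound first genes; the part of this in the string counts was not tested.

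The strings varied with the strength of the summit. In 4 equal groups of member summits, from the strongest to the weakest, ACGCGC was present in 24.8%, 28.1%, 20.3% and 13.8%, and GACGCA in 20.3%, 17.6%, 9.80% and 10.5%. GAGAGA was present in 13.1%, 13.1%, 16.3% and 19.1%. ACGT was least frequent in the strongest group, at 18.95%, 25.5%, 28.1% and 27.6%. GAGCGC stood at 22.9%, 16.3%, 19.6% and 11.8%, and AGAGAC at 11.8%, 14.4%, 13.1% and 15.8%, both without a steady order. The vps-22 window, from one of the strongest summits, held none of the 6 strings, so no string was present at every strong summit.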

How the data were processed

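The analysis used the ce11 region lists of 2 biological replicates of 1 group. Per the readme deposited with the samples, each replicate's relaxed list was called against a control and includes background, and the IDR list was made from these lists. The signal deposited with a region is the authors' caller's own value, and it was used only to rank or describe regions within a list, because its maximum was 191 in replicate 1 and 1996 in replicate 2. For the aligner, the caller, the IDR cut-off and read numbers, the entry is "not given in the sources used here", and no interval based on depth can be given. Lists in the older build ce10 were not used.

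Genes, strands and transcript starts came from Ensembl release 115 of WBcel235, which equals ce11, and sequence from RefSeq's copy of that build. Coordinates are 1-based. The upstream gene that bars a first gene could be of any type, the next gene had to be protein-coding, and genes that overlap were not joined. No annotation of operons or trans-splicing was used. Each replicate's own value rests on its 3909 strongest regions of 28693 and 30000. The gene lists were chosen by symbol patterns. The genes, lists, letter strings and alternatives were chosen with earlier results of these data known. Named genes were those of the 12 strongest member summits, of each list the 2 strongest bound first genes and the unbound one of the largest cluster, the 6 largest clusters, textbook operons, genes at the 300 bp limit, the 5 strongest shared summits and the 5 strongest gap summits. The downstream genes named behind a bound first gene, and the fib-1, ddp-1 and fbxl-2 sequences, were chosen after their values were seen. The scripts were tested on simulated data. Python 3.11.15, numpy 2.4.6 and matplotlib 3.10.9 were used.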

Additional observations from a re-analysis of the deposited data

How the results depend on the processing

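Of 54 values under alternative settings, 30 moved by less than the SD between the replicates and 24 by more. For first genes (33.6%), the values that moved were 23.7% with the 1954 strongest regions, 24.7% with gaps of up to 1000 bp and 20.8% for promoters that meet no opposite-strand promoter. For downstream genes (10.6%) they were 7.68% with promoters of 500 and 100 bp, 20.2% with 2000 and 500 bp, 6.69% with the strongest regions and 8.19% with gaps of up to 100 bp. For other genes (15.2%) they were 18.8% with the wider promoter, 9.19% with the strongest regions and 9.38% without opposite-strand promoters. Leaving out either replicate gave 22.1% to 34.2% of first genes, 8.36% to 10.9% of downstream genes and 11.2% to 15.2% of other genes. Counting a summit only for the nearest start and inside that gene's promoter, added after seeing the data, gave 23.8%, 8.12% and 11.4%. With the wider promoter downstream genes exceeded other genes. The ratio of first to other genes was lowest, 1.54, with gaps of up to 1000 bp, and 2.35 and 2.04 with the narrower and wider promoters. The share of member summits with a longer string was 39.4% with 25 bp to either side and 66.8% with 100 bp, and 50% to 55.7% in the single replicates, also added after seeing the data. The density in gaps was 20.2 and 22.3 summits per 100 kb with gap limits of 100 and 1000 bp. The cause of these differences was not tested. No paired analysis was possible because there was 1 group. Unknown depth, 1 insertion strain, whole larvae and promoters shared by neighbouring genes limit every value.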

Other observations

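Of the 128 summits in gaps, 125 overlapped the 3909 strongest regions of replicate 2 and 57 (44.5%) those of replicate 1, against 52.5% for summits at first genes. A further 83 genes met the spacing rule for a first gene except for a non-coding gene ending within 300 bp upstream on the same strand, and 7 downstream genes were reached from 2 first genes. When neighbours that overlap were also joined, 713 of 2148 first genes (33.2%) were bound.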
